A study of Mus musculus with 12 samples.

Results

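The 30 genes described here encode enzymes and carriers of the citric acid cycle, of pyruvate entry and of the reactions that refill it. They were taken by gene symbol from a table of 19036 mouse genes, by a rule that uses no measured value, and all 30 were found. The list itself was chosen with earlier results of these data known. RNA was sequenced from whole kidneys of C57BL/6 mice in 3 groups of 4 animals, given as biological replicates, at 72 h. Vehicle animals received saline by intraperitoneal injection, and cisplatin animals received 25 mg/kg cisplatin, a platinum anticancer drug that injures the renal tubule, by the same route. The combination animals received the same dose of cisplatin and the compound 84-B10 at 15 mg/kg, begun 48 h before it, and the treatment notes add daily dosing afterwards. The series' design text gives the pretreatment to the combination group alone, whereas its treatment notes can be read as giving it to the cisplatin group too. The sources settle neither this nor the animals' age or sex, and no kidney given 84-B10 without cisplatin was analysed here.

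In the citric acid cycle, mitochondria oxidise acetyl groups from pyruvate, fatty acids and amino acids to carbon dioxide and pass the electrons to the respiratory chain. Because intermediates are drawn off for synthesis, the pool is refilled by anaplerosis, such as the carboxylation of pyruvate to oxaloacetate. The renal proximal tubule is rich in mitochondria, makes glucose from cycle intermediates and reabsorbs citrate and dicarboxylates from the filtrate. Levels are given as FPKM, a fragment count scaled to transcript length and library size. Differences are given on the log2(FPKM + 1) scale, which understates the change of weakly expressed genes, and a gene is said to rise or fall where limma's adjusted p over 12428 tested genes was under 0.05.

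The 10 libraries with estimated read counts held between 15760841 and 18173445 of them, and FPKM values were at hand for all 12. Principal component 1 of the tested genes carried 90.1% of the variance and set the vehicle libraries apart from the other 8. Against vehicle, 6999 genes were higher and 2711 lower after cisplatin, and the median gene stood 0.26 higher. With median-of-ratios scaling of the same values the median difference was 0.01, with 4640 genes higher and 4581 lower. The vehicle kidneys carried the markers of the labelled tissue, with a summed proximal tubule marker level of 67190 to 75080 FPKM.

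In vehicle kidneys the members ranged from Mdh1 at 622 ± 25.8 FPKM (SD, n = 4) to Me2 at 1.03 ± 0.19 FPKM. Mpc1 at 490.1 ± 21.6, Slc13a3 at 427 ± 18.1 and Mdh2 at 386 ± 6.59 FPKM followed Mdh1, and each of these neighbouring means differed by more than either SD. The coefficient of variation within a group had a median over the 30 genes of 3.85% in vehicle, 6.67% in cisplatin and 5.32% in combination kidneys. Slc13a3 varied most in both cisplatin-treated groups, at 23.2% and 19.3%.

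After cisplatin, transcripts for nearly every step of the pathway were lower. Of the 30 members 29 fell, none rose, and Me2 did not pass, against 21.8% of all tested genes called lower and 56.3% called higher. The members' median difference was -0.60, with a range of -1.96 to 0.17, beside a median of 0.26 over all genes. In each of the 29 genes every cisplatin library was below every vehicle library, which held for 19.6% of all genes in that direction. The summed level of the 30 genes was 5708 to 5997 FPKM in vehicle and 3219 to 3633 FPKM in cisplatin kidneys. That was 1.01% to 1.07% of all FPKM in vehicle and 0.606% to 0.692% in cisplatin libraries. In 6 members the fall was at least 2-fold, a size that 4.84% of all genes reached, and in 4 it was under 0.3 on the log2 scale. These are whole-kidney RNA values, in which fewer cells of a type and less RNA per cell cannot be told apart.

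**Figure D1:**
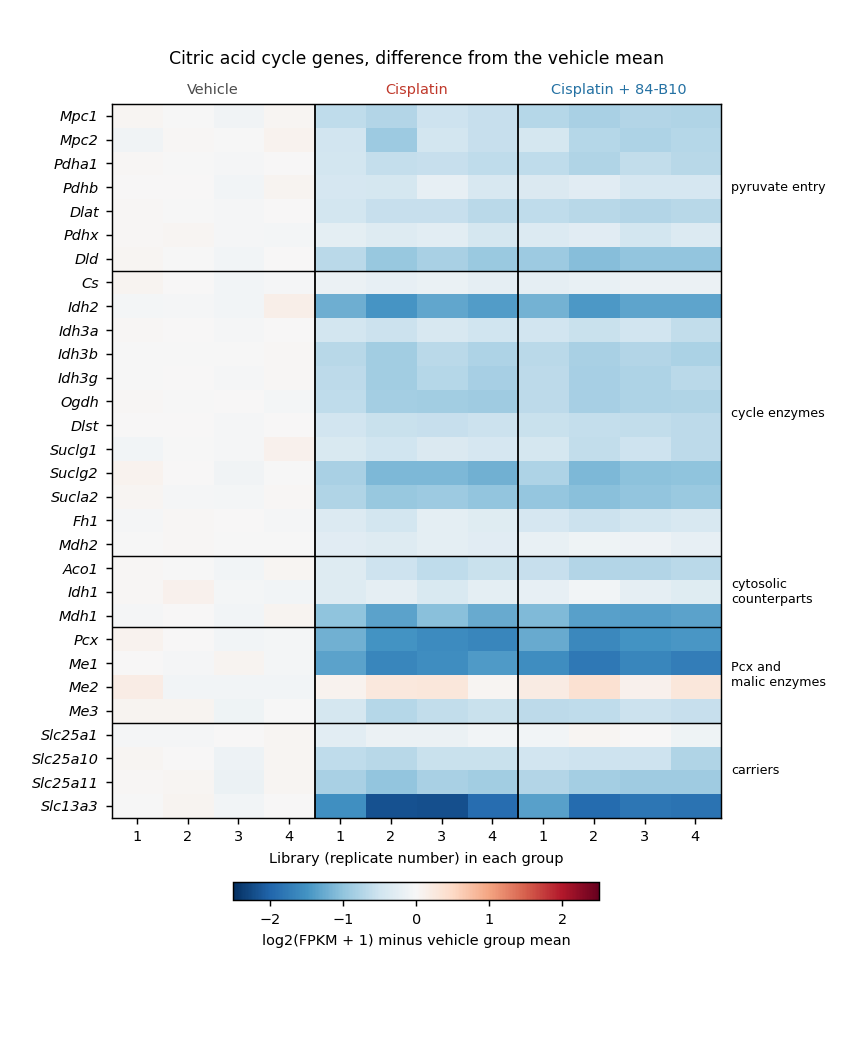
Each row is a member gene and each column a library, with the replicate number below and the group above. Colour gives log2(FPKM + 1) minus the gene's vehicle mean, blue for lower. The cisplatin and combination columns are blue in nearly every row, deepest for Slc13a3, Me1, Pcx and Idh2, palest for Cs, Idh1, Mdh2 and Slc25a1, and Me2 is faintly red.

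Pyruvate enters mitochondria through the carrier formed by Mpc1 and Mpc2 and is converted to acetyl-CoA by the pyruvate dehydrogenase complex. All 7 genes of this step fell, with a median of -0.57. Mpc1 (NCBI gene 55951) stood at 509, 486, 461 and 503 FPKM in vehicle and 314, 295, 343 and 328 FPKM in cisplatin libraries 1 to 4, a difference of -0.61 (SE 0.06, adjusted p = 4.21e-07). Mpc2 (NCBI gene 70456) stood at 243, 263, 256 and 273 FPKM in vehicle and 186, 137, 187 and 172 FPKM in cisplatin libraries, a difference of -0.61 (SE 0.10, adjusted p = 6.07e-05). The groups did not overlap for either subunit. Within the complex, the fall was largest for Dld, the dihydrolipoamide dehydrogenase that also serves other 2-oxoacid dehydrogenases, at -0.84. Dlat, the acetyltransferase core, fell by 0.57, and Pdha1 and Pdhb, the subunits of the first enzyme, differed by -0.57 and -0.36. Pdhx, which anchors Dld to the core, had the smallest fall of the 7, at -0.32.

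All 12 mitochondrial cycle genes among the members fell, but the sizes spanned -0.19 to -1.34, with a median of -0.65. Idh2 (NCBI gene 269951), the NADP-linked isocitrate dehydrogenase of mitochondria, had the largest fall among them. It stood at 265, 267, 262 and 301 FPKM in vehicle and 117, 97.7, 111 and 103 FPKM in cisplatin libraries, a difference of -1.34 (SE 0.07, adjusted p = 1.3e-09), and the groups did not overlap. Cs, the citrate synthase often used as a measure of mitochondrial content, had the smallest, from 127 ± 5.15 to 111 ± 3.11 FPKM (SD, n = 4), a difference of -0.19 (SE 0.04, adjusted p = 0.00191). The NAD-linked isocitrate dehydrogenase differed by -0.47 for its catalytic subunit Idh3a, -0.76 for Idh3b and -0.77 for Idh3g. Ogdh and Dlst, the first and second enzymes of the 2-oxoglutarate dehydrogenase complex, differed by -0.81 and -0.54. Fh1, the fumarase, fell by 0.34, and Mdh2, the malate dehydrogenase of mitochondria, fell by 0.28.

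Succinyl-CoA ligase pairs the shared subunit Suclg1 with either Suclg2, which makes it GTP-forming, or Sucla2, which makes it ATP-forming. Suclg2 (NCBI gene 20917) stood at 202, 193, 180.2 and 189.6 FPKM in vehicle and 109, 86.9, 87.4 and 82.9 FPKM in cisplatin libraries, a difference of -1.06 (SE 0.09, adjusted p = 1.34e-07). Sucla2 (NCBI gene 20916) stood at 102, 96.6, 95.8 and 101 FPKM in vehicle and 58.5, 50.8, 52.5 and 49.6 FPKM in cisplatin libraries, a difference of -0.89 (SE 0.06, adjusted p = 5.85e-09). Suclg1 fell less than either partner, by 0.41.

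Aco1, Idh1 and Mdh1 carry out cycle reactions outside mitochondria, and all 3 fell. Mdh1 (NCBI gene 17449), the cytosolic malate dehydrogenase of the malate-aspartate shuttle, stood at 612, 628, 592 and 653 FPKM in vehicle and 307, 244, 300.2 and 260.1 FPKM in cisplatin libraries, a difference of -1.17 (SE 0.08, adjusted p = 2.88e-08). Idh1 (NCBI gene 15926), the NADP-linked isocitrate dehydrogenase of cytosol and peroxisomes, stood at 205, 216, 195 and 192 FPKM in vehicle and 162, 172, 154 and 171 FPKM in cisplatin libraries, a difference of -0.29 (SE 0.06, adjusted p = 0.000698). Aco1, the cytosolic aconitase that doubles as an iron-responsive RNA-binding protein, fell by 0.51.

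A ratio of 2 genes within a library is unaffected by any scaling that applies 1 factor to the whole library, which quantile scaling does not. Idh1 over Idh2 was 0.771, 0.808, 0.743 and 0.637 in vehicle and 1.38, 1.76, 1.39 and 1.65 in cisplatin libraries 1 to 4, so the order of the cytosolic and mitochondrial transcripts was opposite in the 2 groups. Mdh1 over Mdh2 was 1.59, 1.59, 1.55 and 1.71 in vehicle and 0.973, 0.784, 0.925 and 0.818 in cisplatin libraries, again on opposite sides of 1. Suclg2 over Sucla2 was 1.98, 1.99, 1.88 and 1.89 in vehicle and 1.86, 1.71, 1.67 and 1.67 in cisplatin libraries, a separation that rested on a small gap. Mpc1 over Mpc2 overlapped between the groups, at 1.80 to 2.10 and 1.69 to 2.15. The log2 differences were 1.06 (SE 0.12) for Idh1 over Idh2, -0.88 (SE 0.08) for Mdh1 over Mdh2 and -0.17 (SE 0.04) for Suclg2 over Sucla2. In each of these, the cisplatin and vehicle libraries did not overlap. Each gave p = 0.0286 in a two-sided exact permutation test, the smallest p that 4 against 4 allows. After adjustment over the 8 ratio tests each was 0.0762, so none passed. With that smallest p, none could pass unless most of the 8 tests reached it. The adjusted result therefore cannot tell a wide separation from a narrow one. For Mpc1 over Mpc2 the log2 difference was -0.01 (exact permutation p = 0.943).

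**Figure D2:**
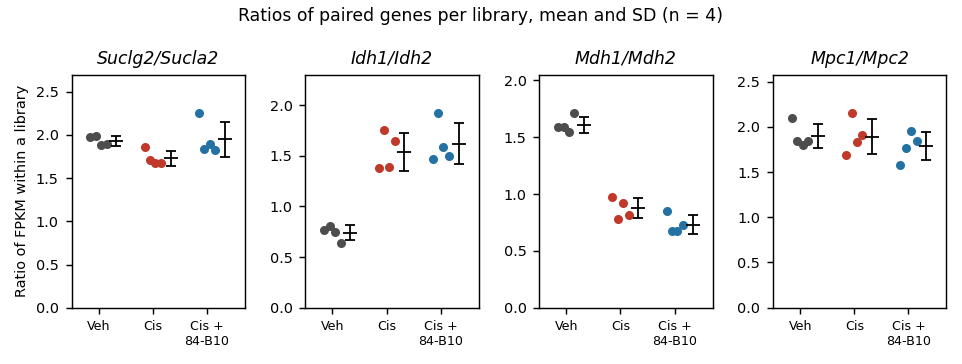
Each panel plots the ratio of FPKM of a gene pair within each library (points), with the group mean and SD (n = 4); Veh is vehicle and Cis is cisplatin. Idh1 over Idh2 is below 1 in vehicle and above 1 in the other libraries, Mdh1 over Mdh2 does the opposite, and Mpc1 over Mpc2 overlaps.

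Me1 and Pcx came next to the carrier Slc13a3 as the members with the largest falls. Pcx (NCBI gene 18563), the pyruvate carboxylase that refills oxaloacetate and begins gluconeogenesis, stood at 263, 250.04, 236 and 239 FPKM in vehicle and 106, 87.6, 82.1 and 79.3 FPKM in cisplatin libraries. The difference was -1.47 (SE 0.09, adjusted p = 5.41e-09), which left 35.9% of the vehicle mean. Me1 (NCBI gene 17436), the cytosolic malic enzyme that makes NADPH, stood at 268, 258, 277 and 257 FPKM in vehicle and 105, 85.5, 89.3 and 98.8 FPKM in cisplatin libraries, a difference of -1.48 (SE 0.07, adjusted p = 4.45e-10). Me3, a mitochondrial NADP-linked malic enzyme of low level, fell by 0.58. Me2, its NAD-linked counterpart, stood at 1.31, 0.94, 0.94 and 0.93 FPKM in vehicle and 1.14, 1.44, 1.45 and 1.10 FPKM in cisplatin libraries. These values are near 1 FPKM and overlap, and the difference of 0.17 did not pass (adjusted p = 0.0911); without vehicle replicate 1 it was 0.23 with adjusted p = 0.0269.

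All 4 carriers fell. Slc13a3 (NCBI gene 114644), the sodium-coupled dicarboxylate transporter of the basolateral membrane of the proximal tubule, had the largest fall of the 30 genes. It stood at 422, 449.6, 406 and 429.7 FPKM in vehicle and 147, 93.0, 91.98 and 113 FPKM in cisplatin libraries, which left 26.1% of the vehicle mean, a difference of -1.96 (SE 0.14, adjusted p = 3.41e-08). Cisplatin replicate 1 was the highest of its group and was still far below the vehicle libraries. Slc25a11, the 2-oxoglutarate carrier, fell by 0.87, and Slc25a10, the dicarboxylate carrier, fell by 0.61. Slc25a1, the citrate carrier, had the smallest fall of the members, 0.16 (SE 0.05, adjusted p = 0.0136), and did not pass in limma on the 10 libraries that have counts (-0.11, adjusted p = 0.102).

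**Figure D3:**
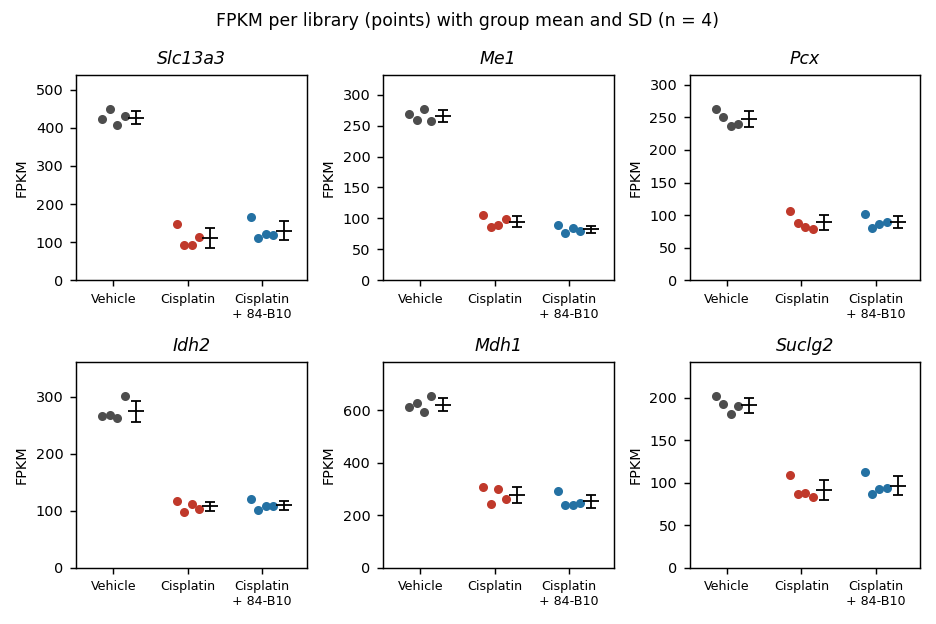
FPKM in each library (points) with the group mean and SD (n = 4) for the 6 members with the largest falls after cisplatin. In every panel all 8 cisplatin-treated libraries lie below all 4 vehicle libraries, and the cisplatin and combination points overlap.

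Promoter sequences from RefSeq (GRCm38.p6), 250 bases before to 50 after the annotated start, were found for 28 of the 30 members; Idh3a and Me2 were not matched. The antioxidant response element core TGACNNNGC, searched on both strands, was in 8 of the 28 (28.6%) and in 14.0% of 27025 genes. Among the 6 members with the largest falls it was present in Slc13a3, Me1 and Mdh1 and absent from Pcx, Idh2 and Suclg2. The other members with it were Mpc1, Pdhb, Idh3g, Dlst and Sucla2. The promoters of Slc13a3, Me1 and Mdh1 were picked for their large falls and are shown with the match in capitals. A link between match and fall was not tested.
Slc13a3, chr2:165473148-165473447, minus strand: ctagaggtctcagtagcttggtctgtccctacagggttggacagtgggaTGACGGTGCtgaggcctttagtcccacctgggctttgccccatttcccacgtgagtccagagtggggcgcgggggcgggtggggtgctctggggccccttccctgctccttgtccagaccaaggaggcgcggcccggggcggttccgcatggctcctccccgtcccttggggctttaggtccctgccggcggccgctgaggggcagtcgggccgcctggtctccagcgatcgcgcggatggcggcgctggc
Me1, chr9:86695865-86696164, minus strand: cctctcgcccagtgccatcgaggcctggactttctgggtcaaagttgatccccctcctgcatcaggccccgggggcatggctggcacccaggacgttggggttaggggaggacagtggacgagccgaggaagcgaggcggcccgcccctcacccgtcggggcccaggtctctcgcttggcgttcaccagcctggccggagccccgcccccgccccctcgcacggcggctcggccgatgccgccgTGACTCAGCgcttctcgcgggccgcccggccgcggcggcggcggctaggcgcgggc
Mdh1, chr11:21571885-21572184, minus strand: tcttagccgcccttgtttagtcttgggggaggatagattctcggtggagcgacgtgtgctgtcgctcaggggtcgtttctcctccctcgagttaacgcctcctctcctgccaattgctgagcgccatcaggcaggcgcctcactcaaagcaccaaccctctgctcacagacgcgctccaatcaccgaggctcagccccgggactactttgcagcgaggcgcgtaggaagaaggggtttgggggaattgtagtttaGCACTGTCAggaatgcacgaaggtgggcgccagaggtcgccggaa
The match lies at -201 to -193 from the start in Slc13a3, spans the start in Me1, and is read on the opposite strand at 5 to 13 in Mdh1. AAGGTCA, a site of estrogen-related receptors, was in 1 of 28 members (Ogdh) and 5.38% of all genes. The nuclear respiratory factor 1 site was in 2 of 28 (Dld and Sucla2) and 5.19% of all genes, and CCAAT was in 18 of 28 and 41.1%. A match is a run of letters, and binding was not measured.

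Markers of some nephron segments also fell after cisplatin. The counts of markers called after cisplatin stand beside the 56.3% of all genes called higher and 21.8% called lower. The 8 proximal tubule markers all fell, and their summed level was 67190 to 75080 FPKM in vehicle, 8628 to 13640 in cisplatin and 6236 to 7907 in combination libraries, most of it Kap. Without Kap the sums were 5793 to 6045, 827.4 to 1599 and 930.6 to 1873 FPKM. Between combination and cisplatin Kap alone of the 8 passed, lower at -0.82 (adjusted p = 0.0103), 5 of the 8 had positive differences, and the list median was 0.07. The 5 loop and distal tubule markers all fell, from a sum of 1398 to 1588 FPKM to 254.9 to 503 FPKM after cisplatin and 182.2 to 293.7 FPKM in the combination. Between combination and cisplatin 2 of the 5 passed, beside 2.21% of all genes called in either direction. Slc12a1 was lower at -2.40 (adjusted p = 0.000906) and Umod at -1.40 (adjusted p = 0.00476), while 2 of the 5 had positive differences that did not pass. The 5 tubular injury markers all rose, from 633.1 to 772.5 FPKM to 10310 to 16460 FPKM after cisplatin and 9292 to 14970 FPKM in the combination. Of the 8 leukocyte markers 6 were tested, 3 rose and 1 fell, while Adgre1 and Cd3e were too low to be tested. The sums over all 8 were 13.26 to 15.81, 75.39 to 105.9 and 95.08 to 116.3 FPKM in the 3 groups. Cd68 made up most of the cisplatin and combination sums, with group means of 1.96, 64.1 and 77.4 FPKM. Cd14 and Itgam also rose, Ptprc fell (-0.28, adjusted p = 0.00308), and Csf1r and Cd79a did not pass. Of 4 collecting duct markers 1 rose and 3 fell, with sums of 234.6 to 290.1, 277.9 to 366.6 and 338 to 553.9 FPKM. The higher sums came from Aqp2, with group means of 108, 234 and 319 FPKM, while Aqp3, Avpr2 and Atp6v1b1 fell. Of 4 endothelial markers 1 rose and 2 fell, with sums of 50.53 to 68.5, 40.84 to 56.55 and 40.04 to 51.64 FPKM. Of 6 blood, liver and muscle markers 4 were tested, 1 rose and 3 fell, with sums of 422 to 436.5, 86.42 to 129.6 and 53.37 to 167.4 FPKM, and the muscle genes Ckm and Acta1 were at or near 0. The part of these markers in the members' falls was not tested. Cisplatin replicate 1 was the highest of its group for 17 of the 30 members and cisplatin replicate 2 the lowest for 16; without either, 29 members were still lower. Combination replicate 1 was the highest of its group for 18 members. The proximal tubule phosphate transporter Slc34a1 was likewise highest in cisplatin replicate 1, at 1061 FPKM, and in combination replicate 1, at 1309.6 FPKM. The others of each group were at most 516 and 949 FPKM. Kap was instead highest in replicate 4 of both groups, at 12789 and 6507 FPKM, and Hnf4a in combination replicate 4. The sum of the 8 markers was also highest in replicate 4 of both groups, and without Kap in replicate 1.

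Adding 84-B10 to cisplatin moved no member past the threshold. None of the 30 was called in either direction, against 2.21% of all genes called in either direction. Their median difference from cisplatin alone was -0.01, with a range of -0.19 for Me1 to 0.23 for Slc13a3, beside 0.02 for the median gene. For all 30 the 95% interval lay within a 1.5-fold change either way. The interval for Slc13a3 was -0.08 to 0.54 and that for Me1 was -0.34 to -0.04. At an unadjusted p under 0.05 there were 10 members (33.3%), 8 lower and 2 higher, against 14.8% of all genes. With the count tools, edgeR called none, and DESeq2 called Mpc1 (-0.22, adjusted p = 0.0179) and Fh1 (-0.20, adjusted p = 0.0393) lower. Over all genes edgeR called 38 higher and 269 lower of 14831, and DESeq2 called 102 higher and 339 lower of 14787.

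The members with the largest falls stood near the cisplatin level in the combination kidneys. Slc13a3 was at 167, 112, 122 and 118 FPKM in combination libraries 1 to 4, which overlaps the cisplatin libraries. Me1 was at 89.7, 76.2, 85.1 and 79.1 FPKM and Idh2 at 119.7, 100.3, 108 and 108 FPKM. Both overlapped the cisplatin libraries. Mdh1 was at 290.3, 240.4, 239 and 245 FPKM, and Suclg2 and Sucla2 were at 112, 86.6, 92.8 and 94.3 and at 49.7, 47.0, 49.2 and 51.6 FPKM. Mpc1 was at 299.8, 277, 296 and 290.4 FPKM, Mpc2 at 189.7, 156, 152 and 158 FPKM and Idh1 at 176, 192, 172 and 163 FPKM. None of these genes separated the combination from the cisplatin group. Pcx was at 102, 80.6, 86.6 and 89.7 FPKM, and its interval against cisplatin was -0.17 to 0.21, while the difference between cisplatin and vehicle was -1.47. Mdh2 was the only member whose groups did not overlap, which held for 4.01% of all genes in that direction. It stood at 316, 310.5, 325 and 318 FPKM in cisplatin and 342, 356, 354 and 336 FPKM in combination libraries, a difference of 0.13 that did not pass (adjusted p = 0.198). The ratios gave no difference past the threshold either, with exact permutation p from 0.0857 to 0.629. Mdh1 over Mdh2 was 0.850, 0.675, 0.675 and 0.728 in combination libraries, and Suclg2 over Sucla2 was 2.25, 1.84, 1.89 and 1.83.

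**Figure D4:**
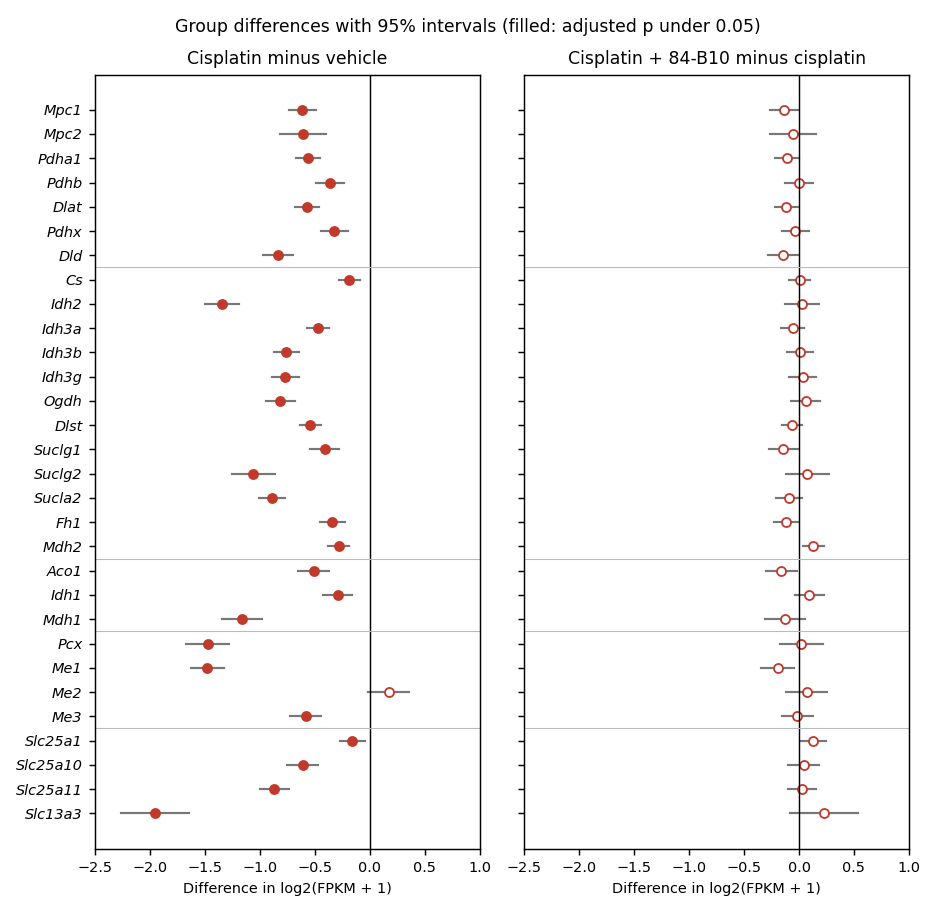
Points are group differences in log2(FPKM + 1) with 95% intervals from limma for each member; filled points have an adjusted p under 0.05. After cisplatin (left) 29 points are filled and below 0, and for the combination against cisplatin (right) none is filled.

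Against vehicle, the combination kidneys had 28 members lower, 1 higher and 1 that did not pass, beside 22.6% of all genes called lower and 56.6% called higher. The median difference was -0.68, and 27 members did not overlap, which held for 20.9% of all genes in that direction. Slc25a1 was the gene that did not pass (-0.03, adjusted p = 0.606), and with median-of-ratios scaling it was called lower, at -0.33. Me2 was called higher at 0.24 (adjusted p = 0.0223), at a level near 1 FPKM, and it was at -0.11 under quantile scaling. That call was lost without any 1 of vehicle replicates 2, 3 and 4 or combination replicate 2. This comparison and the first share the vehicle libraries.

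Around the members, 44 further genes of the pathway were followed in 5 lists. Their counts after cisplatin in the main fit stand beside the 56.3% of all genes called higher and 21.8% called lower. Of the 12428 genes, median-of-ratios scaling called 4640 higher and 4581 lower. Quantile scaling called 4288 higher and 4783 lower, and TPM 7294 higher and 2405 lower. Of 7 regulators of pyruvate dehydrogenase 2 rose and 4 fell. Pdk4, a kinase that switches the complex off, stood at 3.97, 2.58, 5.02 and 7.73 FPKM in vehicle and 46.0, 36.8, 47.2 and 34.0 FPKM in cisplatin libraries, a difference of 2.91 (SE 0.25, adjusted p = 1.39e-07). Pdk2, another kinase of the complex, fell by 1.32, the phosphatase Pdp1 rose by 1.05, and Pdk1 was at 0.12 (adjusted p = 0.26), or -0.23 under quantile scaling. Of 9 genes for the rest of the cycle 6 fell and 1 rose, but none rose with median-of-ratios or quantile scaling or with the count tools. With quantile scaling 8 fell, and with TPM 2 rose and 6 fell. Sdha and Sdhb of succinate dehydrogenase were at -0.99 and -0.69. The assembly factor Sdhaf1 was at 0.16 (adjusted p = 0.104) and was called higher with TPM.

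Of 13 genes of the routes from amino acids, ketone bodies and propionate 5 rose and 7 fell, or 4 and 8 with median-of-ratios scaling. With quantile scaling or TPM 6 rose and 7 fell. Glud1, the glutamate dehydrogenase that yields 2-oxoglutarate, stood at 171, 169, 150.4 and 179.5 FPKM in vehicle and 363, 380.4, 341 and 357 FPKM in cisplatin libraries, a difference of 1.10 (SE 0.06, adjusted p = 1.41e-09). Oxct1, which activates ketone bodies, fell by 1.97. Got2, the mitochondrial aspartate aminotransferase, was at 0.09 (adjusted p = 0.0972), but at -0.20 (adjusted p = 0.00117) with median-of-ratios scaling. It was called higher with quantile scaling and with TPM, so its direction depended on the scaling. Of 9 genes of lipoate synthesis and related 2-oxoacid dehydrogenases 5 fell and 1 rose, or 7 and 0 with median-of-ratios scaling. Bckdha and Bckdhb of the branched-chain complex were at -1.17 and -1.25, Dhtkd1, a 2-oxoadipate dehydrogenase, was at -1.39, and the lipoate synthase Lias was at -0.01 (adjusted p = 0.942), or -0.28 (adjusted p = 0.000625) with median-of-ratios scaling.

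In the combination against cisplatin 2 of the 44 genes passed, both lower, beside 275 (2.21%) of all genes, of which 221 were lower. Gpt, the cytosolic alanine aminotransferase, stood at 15.5, 13.6, 13.05 and 15.4 FPKM in vehicle, 20.6, 24.2, 26.8 and 27.7 FPKM in cisplatin and 14.7, 15.1, 14.6 and 16.1 FPKM in combination libraries. It rose by 0.74 after cisplatin and was lower in the combination than after cisplatin alone, at -0.67 (SE 0.08, adjusted p = 0.00055), and its combination and cisplatin libraries did not overlap. Bdh1, the ketone body dehydrogenase, stood at 36.7, 36.7, 47.4 and 39.6 FPKM in vehicle, 16.7, 8.99, 12.97 and 13.7 FPKM in cisplatin and 6.34, 4.77, 4.75 and 5.56 FPKM in combination libraries. It fell by 1.57 after cisplatin and was lower again in the combination, at -1.13 (SE 0.15, adjusted p = 0.000746).

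**Figure D5:**
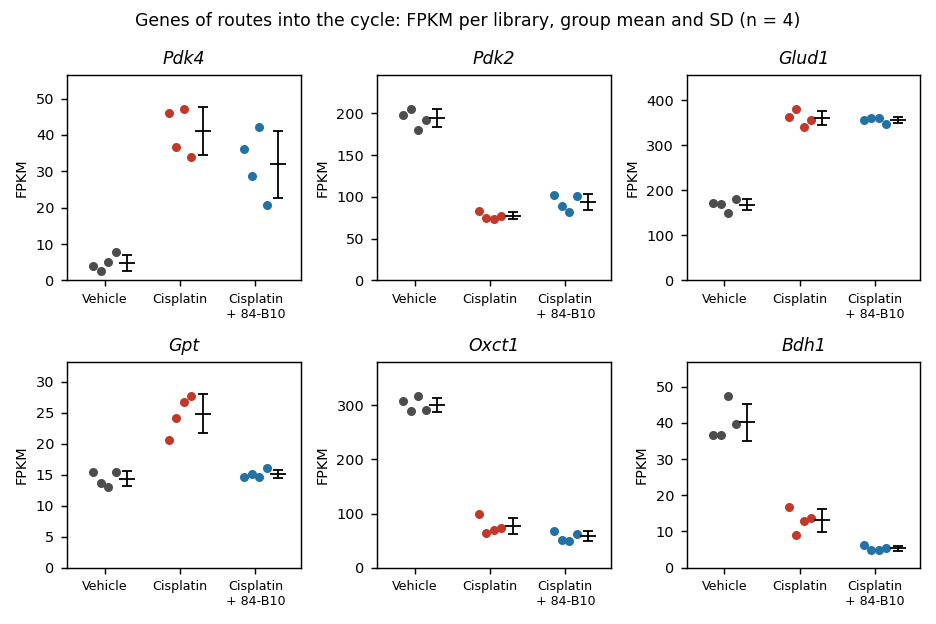
FPKM in each library (points) with the group mean and SD (n = 4) for 6 genes of routes into the cycle. Pdk4 and Glud1 are higher in all cisplatin-treated libraries than in vehicle, and Pdk2, Oxct1 and Bdh1 are lower. Gpt is highest in the 4 cisplatin libraries and overlaps between vehicle and combination, and Bdh1 is lower again in the combination.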

How the data were processed

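RNA from frozen kidney was sequenced in 12 libraries, 4 per group, extracted with Trizol per the labels' protocols. Per the submitters' processing notes, HISAT2 2.0.4, Bowtie2 2.2.5 and RSEM 1.2.12 were used. The roles of these tools, the genome build, the annotation, the strand setting and the handling of reads shared with pseudogenes are each not given in the sources used here. The authors deposited FPKM per gene for 12 libraries, per the file headers. Estimated counts, per the file headers deposited beside them and not whole for 34.3% of values, could be assigned to 10 libraries, since cisplatin replicates 1 and 2 had no usable heading, and 14 further columns of per-sample values were not used. FPKM was therefore the main measure. Genes at 1 FPKM or more in at least 4 libraries (12428) were tested on log2(FPKM + 1), pseudocount 1, with limma 3.58.1 (R 4.3.3) in 1 fit of the 3 group means with a mean-variance trend, 9 residual degrees of freedom and Benjamini-Hochberg adjustment over all genes. All 30 members passed this filter. Ratios within a library were compared by two-sided exact permutation over samples, adjusted over 8 tests. Alternatives were other pseudocounts, filters and scalings, TPM, each library left out, a replicate block, and edgeR 4.0.16 and DESeq2 1.42.0 on rounded counts of 10 libraries. The analysis code was tested on simulated data. The depth given covers those 10 libraries. The members, gene lists and tests were chosen with earlier results of these data known. Named genes were, in each pathway list, the 3 with the largest test statistic after cisplatin, any that passed in the combination against cisplatin, and the most highly expressed that did not pass; 2 genes this rule names are not reported here and stay in the counts.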

Additional observations from a re-analysis of the deposited data

Results flagged for a closer look

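Single libraries stood apart from the other 3 of their group, by Dixon's criterion at the 95% level, in 8 of 90 groups of member values and in 11 of 153 groups once 21 named genes of the wider pathway are counted. Chance marks about 1 in 20 groups. Combination replicate 1 was the library concerned in 5 of the 11, each time as the highest. It held 189.66 FPKM of Mpc2 (the others 151.77 to 158.20), 290.32 FPKM of Mdh1 (238.65 to 244.60), 166.72 FPKM of Slc13a3 (112.29 to 121.50), 103.03 FPKM of Bckdha (82.24 to 85.67) and 151.47 FPKM of Sdha (124.09 to 128.34). Cisplatin replicate 1 held 165.53 FPKM of Sdha, with the others at 127.57 to 133.18, and cisplatin replicate 3 held 95.75 FPKM of Pdhb, with the others at 80.94 to 82.66. Combination replicate 4 was low for Slc25a10, at 95.21 FPKM against 112.71 to 115.18. Vehicle replicate 4 was high for Idh2, at 300.72 FPKM against 262.10 to 267.13, and vehicle replicate 3 was low for Slc25a11, at 95.71 FPKM against 107.95 to 109.93. Vehicle replicate 1 was high for Me2, at 1.31 FPKM against 0.93 to 0.94.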

How the results depend on the processing

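The count of members lower after cisplatin was 29 in each fit that left out a library, with the replicate block and with the count tools; it was 28 under quantile scaling, where Idh1 was at -0.14 (adjusted p = 0.0894), and in limma on 10 libraries. The count higher was 0 to 1 with a library left out. The members' median after cisplatin was -0.88 with median-of-ratios and -0.64 with quantile scaling. For the combination against cisplatin, DESeq2 called 2 members lower, beside 339 of 14787 genes, and no left-out library gave any. Against vehicle, 28 members were lower in each left-out fit, and the count higher was 0 to 1; it was 0 with a mean FPKM of at least 5, where Me2 was not tested, with median-of-ratios or quantile scaling, and with edgeR and DESeq2. Me2 was at -0.11 there under quantile scaling. Got2 after cisplatin was at -0.20 (median-of-ratios), -0.21 (edgeR) and -0.22 (DESeq2), and Pdk1 at -0.23 (quantile), -0.35 (edgeR) and -0.36 (DESeq2). With quantile scaling and with TPM, Got2 was instead called higher. Where a value turned, the cause was not tested.

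The replicate numbers were not taken to pair the samples, since in no comparison were all 4 same-number correlations over 0.1. They were 0.08, 0.07, -0.08 and -0.07 between cisplatin and vehicle, and 0.56, 0.25, 0.37 and -0.24 between combination and cisplatin, where 3 of the 4 were over 0.1 and 2 of the 4 numbers correlated best with themselves. The replicate block gave 29, 0 and 28 members lower in the 3 comparisons, and among named genes it added only calls of Pdk2 (0.27, adjusted p = 0.0358) and Oxct1 (-0.40, adjusted p = 0.0469) in the combination against cisplatin. With 4 samples a group the exact test cannot fall below 0.0286, and depth is unknown for cisplatin replicates 1 and 2.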

Other observations

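Genes that lead out of the cycle or exchange pyruvate and lactate had 2 of 6 genes higher and 4 lower after cisplatin (0 and 4 with median-of-ratios scaling), with a list median of -0.23 beside -0.60 for the members. Pck2, the mitochondrial phosphoenolpyruvate carboxykinase, was at 0.37 (SE 0.07, adjusted p = 0.000231), a call lost under median-of-ratios and quantile scaling and with both count tools. Slc13a2, the citrate and dicarboxylate transporter of the apical membrane, was at -0.67 (SE 0.16, adjusted p = 0.00145), beside -1.96 for its basolateral relative Slc13a3. Ldhb, a lactate dehydrogenase subunit, was at -0.26 (SE 0.07, adjusted p = 0.00259). None of the 6 passed in the combination against cisplatin by limma, and 1 had an unadjusted p under 0.05.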
